A study of Mus musculus with 6 samples.

Results

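The TNF superfamily ligands are trimeric proteins through which lymphocytes act on neighbouring cells. Most are made as membrane proteins, some are cut loose by proteases, and each binds 1 or more receptors of the TNF receptor superfamily. Those receptors either recruit TRAF adaptors and switch on NF-kappaB, or carry a death domain and can switch on caspases. In T cells several of the ligands are known as products of activation, and regulatory T cells (Treg), CD4 lymphocytes that depend on the factor Foxp3 and hold immune responses in check, make some of them and respond to others. The genes described here are 10 such ligands, chosen by name: Lta, Ltb, Tnf, Tnfsf8, Tnfsf10, Tnfsf11, Tnfsf14, Fasl, Cd40lg and Cd70. All 10 were found by symbol among the 24421 genes of the deposited expression table.

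The table holds 6 SMART-seq libraries, full-length cDNA copied from polyadenylated RNA and amplified by PCR, each from 100000 cells labelled Treg, with 40 ng of total RNA. Spleen and lymph nodes of mice with the genotype WT were their source. The 3 groups of 2 libraries are unstimulated (treatment "no"), stimulated ("stimulation") and stimulated with iBP ("stimulation+iBP"), where the design text of the series describes iBP as inhibiting H2AK119ub1, the histone H2A mark set by Polycomb repressive complex 1. Treg from Kdm2b cKO mice, which that text also names, were not analysed here. Sources used here give neither the stimulus nor how long it lasted, nor an iBP dose or the age of the mice. They do not say either that replicates were separate animals, so each p-value rests on the spread among these libraries alone, and that spread may be technical.

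Levels are FPKM, fragment counts per length of transcript and per number of fragments mapped, so genes can be compared with each other. Differences are on the log2(FPKM + 1) scale, which understates the change of genes at low levels, with standard errors (SE) from a limma model fitted to all 6 libraries. A gene was tested if 2 or more libraries read 1 FPKM or more, which held for 10436 genes, and a Benjamini-Hochberg adjusted p under 0.05 over all of them counted as passing. Of the 10 ligand genes, 9 were tested. Cd70 stayed below the minimum, and Tnfsf14 reached it only in the stimulated libraries with and without iBP.

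Summed FPKM ran from 366044 to 381302 per library, and read depth is unknown. Unstimulated replicate 1 stood apart on the first principal component, at −37.9 against −9.32 to 13.3 for the other 5 libraries. It also had the fewest genes above 0, 12596 against 13293 to 13592. Unstimulated replicate 2 was lowest on the second component, at −27.0 against −4.67 to 16.2 for the others. All 8 Treg markers were above 0 in every library, with a summed FPKM of 1385 and 1425 unstimulated, 2124 and 2192 stimulated, and 2041 and 2075 with iBP. Foxp3 itself read 35.5 and 47.1 FPKM unstimulated, 121.0 and 101 stimulated, and 122 and 124 with iBP. All 10 B-cell markers were above 0 in every library too. By mean level they ran from Pax5, at 1.57 to 3.38 FPKM, to Cd79b, at 222 to 340.3. The T-cell markers ran from Cd28, at 43.8 to 57.9 FPKM, to Lat, at 270 to 395. The 7 T-cell markers found in the table summed to 1020.4 and 1157 FPKM unstimulated, 996 and 1014 stimulated, and 955 and 996 with iBP. B cells are also known to make several of these ligands. In such bulk samples fewer cells of a type and less RNA per cell cannot be told apart.

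The set was dominated by Ltb, which encodes lymphotoxin beta, the membrane anchor of lymphotoxin heterotrimers. Ltb made up 58.9% and 68.8% of the summed FPKM of the 10 ligands in unstimulated libraries, 54.0% and 55.3% in stimulated ones and 50.3% and 52.1% with iBP. Without stimulation the order of mean levels was Ltb, Tnfsf8, Tnf, Lta, Cd40lg, Fasl, Tnfsf10, Tnfsf11, Tnfsf14 and Cd70, where Tnf and Lta, Cd40lg and Fasl, and Tnfsf11 and Tnfsf14 overlapped between libraries. With stimulation Lta stood second, and no neighbours in the order overlapped. With iBP the order of the leading 6 genes was the same as in stimulated libraries, with Fasl and Cd40lg overlapping. Tnfsf10, Tnfsf11, Tnfsf14 and Cd70 read at most 3.47 FPKM in every library.

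**Figure D1:**
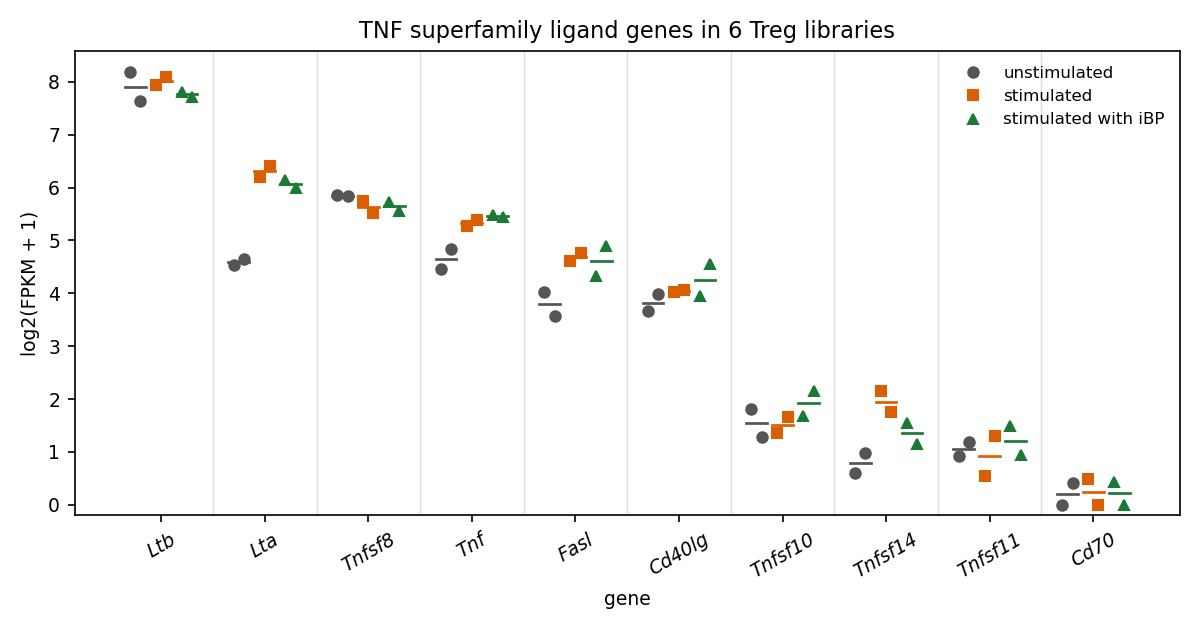
Level of each of the 10 TNF superfamily ligand genes, as log2(FPKM + 1) on the vertical axis, in 2 unstimulated, 2 stimulated and 2 stimulated libraries with iBP; each symbol is 1 library and each short line the mean of 2 on that scale. Lta lies at 22.0 and 24.2 FPKM unstimulated and between 62.3 and 83.9 in the 4 stimulated libraries, while Ltb overlaps between unstimulated and stimulated libraries.

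In stimulated against unstimulated libraries, the comparison that asks how the genes differ after stimulation, Lta rose and no ligand gene fell. Lta was the only 1 of the 9 tested ligand genes to pass, where 1.29% of all tested genes passed, 0.968% upward and 0.326% downward. An unadjusted p under 0.05 was reached by 4 of the 9 (Lta, Tnf, Fasl and Tnfsf14), against 10.8% of all tested genes. A further 4 ligand genes (Tnf, Fasl, Tnfsf14 and Cd40lg) were higher in both stimulated libraries than in both unstimulated ones without passing, so that 5 of 9 did not overlap in that direction, against 18.7% of all tested genes. Tnfsf8 alone was lower without overlap, as were 19.1% of all tested genes. The median difference of the 9 was 0.22, and that of all tested genes −0.0024. Since Tnfsf14 was tested through its stimulated libraries, these counts describe the tested genes and support nothing further. The number of genes past the test in this comparison, 135 in all, was 54 when stimulated replicate 2 was left out, 81 when stimulated replicate 1 was, and 84 when unstimulated replicate 1 was.

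Lta encodes lymphotoxin alpha, which is secreted as a homotrimer that binds the TNF receptors and joins lymphotoxin beta in membrane heterotrimers that bind the lymphotoxin beta receptor. It read 22.0 and 24.2 FPKM in unstimulated libraries, 72.9 and 83.9 in stimulated ones, and 69.4 and 62.3 with iBP. All 4 stimulated libraries were thus far above both unstimulated ones, and those with iBP were slightly below those without. The rise with stimulation was 1.72 ± 0.15 (log2, SE, n = 2 libraries per group; 95% interval 1.40 to 2.04; limma adjusted p = 0.000125), and group means differed 3.39-fold in FPKM. Over the 12 alternative analyses the difference stayed between 1.62 and 1.82, with adjusted p from 0.000125 to 0.0482. Of the 8 Treg markers, 7 had a positive difference with stimulation, and 4 of these passed (Foxp3, Il2ra, Tnfrsf18 and Il2rb). Ikzf2 was lower on average (−0.19, limma adjusted p = 0.746). The part of the Treg markers in the rise of Lta was not tested.

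Ltb and Tnf are the closest genomic neighbours of Lta. The 3 genes lie within 10913 bases of chromosome 17 (GRCm38, GENCODE M21): Ltb at chr17:35194439-35196320 on the plus strand, Tnf at chr17:35199381-35202007 and Lta at chr17:35203165-35205351, both on the minus strand. Between Ltb and Tnf are 3060 bases, and between Tnf and Lta 1157. Their gene models do not overlap each other, though each lymphotoxin gene holds a microRNA gene on its own strand.

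Ltb read 288 and 198 FPKM unstimulated, 243 and 270 stimulated, and 222 and 210.0 with iBP. The 2 unstimulated libraries, of which replicate 1 stood apart on the first principal component, enclosed both other groups. The difference with stimulation was 0.10 ± 0.16 (95% interval −0.24 to 0.45; limma adjusted p = 0.898), and it was −0.17 without unstimulated replicate 2. The ratio of Ltb to Lta in FPKM went from 13.1 and 8.15 in unstimulated libraries to 3.34 and 3.21 in stimulated and 3.20 and 3.37 in iBP libraries.

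Tnf encodes tumour necrosis factor, the inflammatory cytokine that on Treg acts mainly through TNF receptor 2. It read 20.9 and 27.6 FPKM unstimulated, 37.6 and 40.9 stimulated, and 43.4 and 42.4 with iBP. Both stimulated groups lay above the unstimulated one, with the iBP libraries highest. The difference with stimulation was 0.69 ± 0.17 (95% interval 0.32 to 1.05; limma adjusted p = 0.0805) and did not pass, although it did without unstimulated replicate 2 (0.88, adjusted p = 0.0389). The ratio of Lta to Tnf was 1.05 and 0.879 unstimulated, 1.94 and 2.05 stimulated, and 1.60 and 1.47 with iBP.

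**Figure D2:**
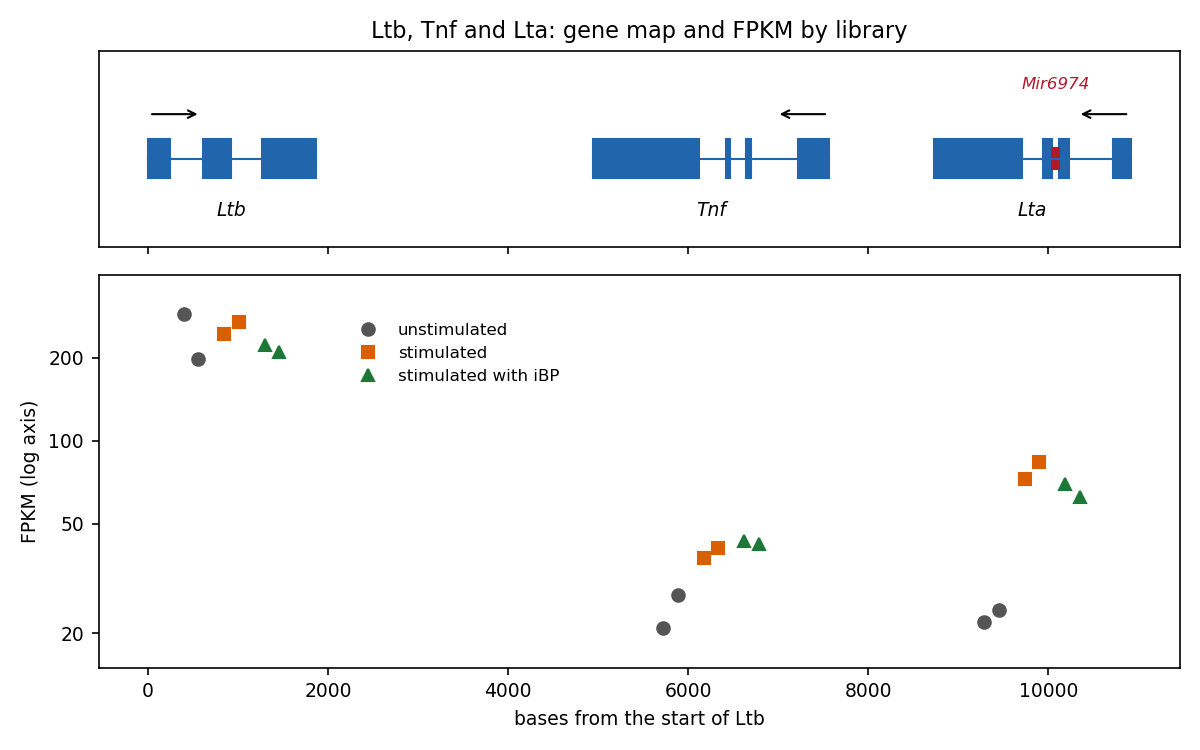
Upper panel: exons (blocks) of Ltb, Tnf and Lta drawn to scale as bases from the start of Ltb, with arrows for the direction of transcription and Mir6974, which fills an intron of Lta, in red. Lower panel: FPKM of each gene on a log axis, 1 symbol per library, with Lta and Tnf higher in the 4 stimulated libraries (62.3 to 83.9 and 37.6 to 43.4 FPKM) than in the unstimulated ones (22.0 and 24.2, and 20.9 and 27.6), and Ltb overlapping.

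The 3 neighbours also differ in the sequence before their starts, which is shown because these genes lie side by side. With stimulation Lta passed the test and Ltb and Tnf did not, though Tnf too was higher without overlap. Whether the changes of the 3 genes differ was not tested, nor was any part of these letters in them. The lines below give the 150 bases before the more upstream of the RefSeq and GENCODE starts, from the RefSeq promoter table (GRCm38.p6), on the strand of the gene. Capitals mark matches, on either strand, to TATAAA (the TATA box), GGAAAA (the core bound by NFAT), GGGCGG (the GC box), TGACTCA (AP-1), TGACGTCA (the cAMP response element) and the kappaB consensus.
Lta, chr17:35205352-35205501, minus strand: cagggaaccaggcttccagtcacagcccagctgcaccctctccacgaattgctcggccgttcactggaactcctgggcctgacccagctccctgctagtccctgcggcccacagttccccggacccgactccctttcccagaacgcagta
Tnf, chr17:35202008-35202157, minus strand: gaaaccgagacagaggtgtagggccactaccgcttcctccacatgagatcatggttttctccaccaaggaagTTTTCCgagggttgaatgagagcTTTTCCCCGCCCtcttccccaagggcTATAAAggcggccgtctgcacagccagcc
Ltb, chr17:35194289-35194438, plus strand: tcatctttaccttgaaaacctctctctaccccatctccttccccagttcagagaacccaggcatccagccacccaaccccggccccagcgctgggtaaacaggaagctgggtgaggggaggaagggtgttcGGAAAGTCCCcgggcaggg

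In Tnf these letters held a TATA box at −29 to −24 from the start, 2 NFAT cores read on the opposite strand and, directly after the nearer of them, a GC box on that strand. In Ltb they held 1 kappaB match on the opposite strand, and in Lta none of the 6 motifs. The whole windows of the table reach from 250 bases before to 50 after the RefSeq start, and there Lta had a TATAAA at −167 to −162. Of the 32851 windows in the table, 13.6% held TATAAA, 23.4% the NFAT core, 35.7% the GC box, 5.2% the AP-1 motif, 1.79% the cAMP response element and 5.8% the kappaB consensus. Promoters were found for 8 of the 10 ligand genes. CpG dinucleotides, to which the Polycomb-associated protein KDM2B binds when they are unmethylated, numbered 11 in the window of Tnf, 10 in that of Lta, 9 in that of Tnfsf8, 7 each in those of Ltb, Tnfsf11, Tnfsf14 and Fasl, and 6 in that of Tnfsf10, where the median window of the table held 7. Among the other ligands, Tnfsf11 held a TATAAA, Tnfsf14 an AP-1 match, Fasl an NFAT core and a GC box, and Tnfsf8 and Tnfsf10 none of the motifs. A match is a description of letters and no measured site.

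The mRNA of Tnf is a textbook case of control by AU-rich elements, repeats of ATTTA in the part after the stop codon that are bound by proteins which speed up decay. In the GENCODE transcripts, that part of Tnf held 8 ATTTA in 764 bases and 5 copies of the longer TTATTTATT, counted on the sense strand with overlaps. Of 1179 genes whose 3′ untranslated part is within 10% of that length, 0.339% had at least as many ATTTA and 4.58% held any TTATTTATT. Lta held 3 ATTTA and 1 TTATTTATT in 572 bases, where 13% of 1076 genes of like length had as many ATTTA and 2.97% held the longer motif. None of the other 8 ligand genes held TTATTTATT, and Ltb, with 156 bases, held no ATTTA either. The 30 bases richest in ATTTA are shown for both genes, with ATTTA in capitals.
Tnf, chr17:35199679-35199708, minus strand: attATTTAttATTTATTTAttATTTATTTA
Lta, chr17:35203400-35203429, minus strand: gagagaaaagttaagttATTTATTTAtaga

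The table lists the microRNA genes inside the lymphotoxin genes as rows of their own. Mir6974 (chr17:35204475-35204557) covers all 83 bases of intron 2 of the 4-exon Lta, so fragments of unspliced Lta RNA there cannot be told apart from the microRNA gene. Its row read 1.38 and 2.71 FPKM unstimulated, 11.2 and 21.3 stimulated, and 12.0 and 9.86 with iBP. It was higher in all 4 stimulated libraries, as Lta was, with a rise of 2.47 ± 0.33 in stimulated against unstimulated (limma adjusted p = 0.0025). Mir6973a, 78 bases within the 366 bases of the first intron of Ltb, read 42.3 and 35.2 FPKM unstimulated, 36.2 and 60.9 stimulated, and 31.3 and 31.5 with iBP, and its groups overlapped with stimulation (0.28 ± 0.22, adjusted p = 0.723).

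Next to these 3 genes, 7 other genes were listed as neighbours and 6 tested. With stimulation 0 passed in limma and 0 had an unadjusted p under 0.05. Prrc2a read 5.66 and 7.80 FPKM unstimulated and 8.78 and 7.93 stimulated (0.29, limma adjusted p = 0.755), and Ddx39b, an RNA helicase gene, read 101 and 113 against 115 and 122 (0.14, adjusted p = 0.784). Aif1, a macrophage gene, read at most 0.916 FPKM in these 4 libraries.

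The death ligands Fasl and Tnfsf10 stood at different levels. Fasl encodes Fas ligand, which kills or restrains cells that carry Fas. It read 15.3 and 10.8 FPKM unstimulated, 23.4 and 26.3 stimulated, and 19.0 and 28.7 with iBP. Every stimulated library was above both unstimulated ones, and the 2 iBP libraries lay on either side of the stimulated pair. The difference with stimulation was 0.90 ± 0.23 (95% interval 0.39 to 1.40; limma adjusted p = 0.1) and did not pass, nor did it in any of the 12 alternatives (adjusted p from 0.0915 to 0.486). Tnfsf10 encodes TRAIL, which binds a death receptor encoded by Tnfrsf10b. It read 2.50 and 1.44 FPKM unstimulated, 1.55 and 2.15 stimulated, and 2.22 and 3.45 with iBP, so that unstimulated and stimulated libraries overlapped (−0.04 ± 0.35, 95% interval −0.81 to 0.72, adjusted p = 0.987).

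Among the ligands known for costimulation, Tnfsf8 and Cd40lg were well expressed and Tnfsf14 and Cd70 were not. Tnfsf8, the CD30 ligand gene, read 56.9 and 56.3 FPKM unstimulated, 52.5 and 44.7 stimulated, and 51.8 and 46.3 with iBP. Both stimulated groups lay below the unstimulated one by a small margin (stimulated: −0.22 ± 0.14, 95% interval −0.54 to 0.10, limma adjusted p = 0.661). Cd40lg, whose product licenses B cells and dendritic cells through CD40, read 11.6 and 14.9 FPKM unstimulated, 15.3 and 15.8 stimulated, and 14.5 and 22.4 with iBP. Its stimulated libraries were only just above the higher unstimulated one (0.22 ± 0.23, 95% interval −0.28 to 0.73, adjusted p = 0.818).

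Tnfsf14 encodes LIGHT, a ligand of HVEM and of the lymphotoxin beta receptor. It read 0.509 and 0.9747 FPKM unstimulated, 3.47 and 2.36 stimulated, and 1.93 and 1.23 with iBP. The 3 groups did not overlap, with the iBP libraries between the others. The difference with stimulation was 1.17 ± 0.36 (95% interval 0.38 to 1.95), the second largest among the ligand genes, and did not pass (limma adjusted p = 0.192; 0.158 to 0.561 over the alternatives). Since it was tested only through its values in stimulated libraries, its direction there is partly set by the filter. With a pseudocount of 0.1 the same difference was 1.87.

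Cd70, the ligand gene for CD27, was listed at 0 in 1 library of each group and at 0.338, 0.402 and 0.352 FPKM in the others, in the order unstimulated, stimulated and iBP. It was below the filter, and with the filter lifted its difference with stimulation was 0.03 ± 0.25 (95% interval −0.61 to 0.68). Tnfsf11 encodes RANKL, which drives osteoclasts and lymph-node development. It read 0.886 and 1.29 FPKM unstimulated, 0.460 and 1.47 stimulated, and 1.81 and 0.916 with iBP, and all groups overlapped (stimulated: −0.13 ± 0.40, 95% interval −1.01 to 0.75, adjusted p = 0.954).

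In stimulated libraries with iBP against those without, the comparison that asks how the stimulated state differs when iBP is present, 0 of the 9 tested ligand genes passed in limma, where 0.00958% of all tested genes did (1 gene, higher with iBP). An unadjusted p under 0.05 was reached by 0 of the 9 and by 4.77% of all tested genes. Lta, Ltb and Tnfsf14 were lower in both iBP libraries than in both stimulated ones and Tnf and Tnfsf10 higher, 3 of 9 and 2 of 9 genes where 21% and 13.6% of all tested genes had such groups. The median difference of the 9 was 0.02, against −0.03 for all tested genes. Lta differed by −0.25 ± 0.15 (95% interval −0.57 to 0.07), Ltb by −0.25 ± 0.16 (−0.59 to 0.10), Tnf by 0.13 ± 0.17 (−0.24 to 0.49) and Fasl by −0.08 ± 0.23 (−0.59 to 0.42). These intervals are not adjusted for the number of genes, and a missed threshold does not show equal levels. For the genes at low levels they were wider: Tnfsf14 differed by −0.60 ± 0.36 (−1.38 to 0.18), Tnfsf10 by 0.42 ± 0.35 (−0.35 to 1.18) and Tnfsf11 by 0.29 ± 0.40 (−0.59 to 1.17). Tnfsf8 differed by 0.02 ± 0.14 (−0.30 to 0.33) and Cd40lg by 0.20 ± 0.23 (−0.30 to 0.71). The adjusted p of all 9 was at least 0.998 in limma after rounding.

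Beside the lower values of Lta and Ltb with iBP, the summed FPKM of the 10 B-cell markers was 802 and 848 in iBP libraries, 913 and 951 in stimulated and 877 and 921 in unstimulated ones. Among the 10, Cd79b, a B-cell receptor component, differed most in size, at 222 and 244 FPKM with iBP and 336 and 340.3 without. With iBP against stimulated libraries, 5 of the 10 had a positive difference, and the median of the 10 was 0.0068. Neither the part of Cd79b nor that of B cells in the ligand values was tested. None of the 10 B-cell markers passed the test in any of the 3 comparisons.

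**Figure D3:**
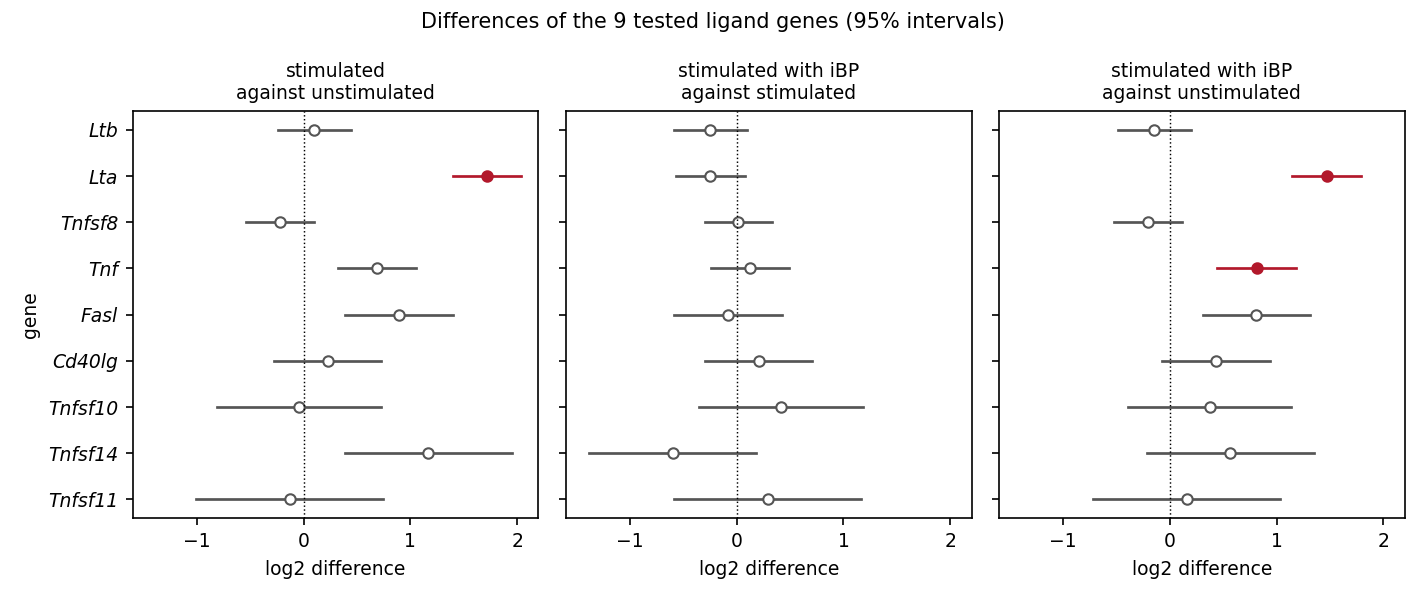
Differences on the log2(FPKM + 1) scale (points) with 95% intervals (lines) for the 9 tested ligand genes in 3 comparisons; filled red points passed at an adjusted p under 0.05. Lta passed against unstimulated libraries both without iBP (1.72) and with it (1.47), Tnf passed with it (0.81) but not without (0.69), and no gene passed between iBP and stimulated libraries.

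Stimulated libraries with iBP were also set against unstimulated ones. That comparison shares libraries with both others, so its values are given side by side with theirs and not as separate support. Lta and Tnf rose and 0 of the 9 tested ligand genes fell, where 1.75% of all tested genes passed, 1.03% upward and 0.728% downward. An unadjusted p under 0.05 was reached by 3 of the 9 (Lta, Tnf and Fasl) and by 12.2% of all tested genes. The 183 genes that passed in all became 95 without unstimulated replicate 1, 76 without iBP replicate 1 and 53 without iBP replicate 2. Lta was higher by 1.47 ± 0.15 (95% interval 1.15 to 1.79; limma adjusted p = 0.000482), against 1.72 without iBP. That call ended without the filter on low values (adjusted p = 0.0525) and without the variance trend (0.0813). Tnf was higher by 0.81 ± 0.17 (0.44 to 1.18; adjusted p = 0.0333), against 0.69 without iBP, and the difference between those, 0.13, did not pass. The Tnf call ended when iBP replicate 1 (adjusted p = 0.235), iBP replicate 2 (0.201) or unstimulated replicate 1 (0.169) was left out, and also without the filter (0.195) or the trend (0.238).

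The remaining ligand genes did not pass in that comparison. Fasl differed by 0.81 ± 0.23 (95% interval 0.31 to 1.32, limma adjusted p = 0.131), Tnfsf14 by 0.57 ± 0.36 (−0.22 to 1.35), Cd40lg by 0.43 ± 0.23 (−0.08 to 0.93) and Tnfsf10 by 0.37 ± 0.35 (−0.39 to 1.14). Ltb differed by −0.14 ± 0.16 (−0.49 to 0.20), Tnfsf8 by −0.20 ± 0.14 (−0.52 to 0.11) and Tnfsf11 by 0.16 ± 0.40 (−0.72 to 1.04). Lta, Tnf, Fasl and Tnfsf14 were higher without overlap, 4 of 9 against 18.1% of tested genes, and Tnfsf8 was lower, as were 23.9%. Tnfsf14 was tested only through the stimulated libraries with and without iBP. This count therefore describes the tested genes and supports nothing further.

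Of 11 genes for receptors of these ligands 8 were tested with stimulation, of which 1 rose (Fas), 1 fell (Cd27) and 6 did not pass. Among all tested genes 0.968% rose and 0.326% fell. Fas, the death receptor for Fas ligand, read 39.2 and 32.2 FPKM unstimulated, 71.4 and 73.8 stimulated, and 70.2 and 63.6 with iBP. It rose by 1.01 ± 0.15 (limma adjusted p = 0.00476) with all 4 stimulated libraries above both others, and the call ended without stimulated replicate 2 (0.0547). The ratio of Fasl to Fas in FPKM ran from 0.270 to 0.451 and overlapped between all groups. Cd27, the costimulatory receptor for CD70, read 142 and 130 FPKM unstimulated, 85.3 and 81.3 stimulated, and 72.0 and 86.5 with iBP. It fell by 0.70 ± 0.13 (adjusted p = 0.0264), while Cd70 itself read at most 0.402 FPKM, and the call ended without unstimulated replicate 1 (0.132), stimulated replicate 1 (0.0818) or stimulated replicate 2 (0.185).

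Tnfrsf1b, which encodes TNF receptor 2, a receptor for TNF and lymphotoxin alpha that Treg carry at high levels, read 57.2 and 88.4 FPKM unstimulated, 67.5 and 58.2 stimulated, and 63.5 and 68.3 with iBP. All 3 groups overlapped (stimulated: −0.18 ± 0.19, limma adjusted p = 0.820), and the difference was 0.13 without unstimulated replicate 2. Tnfrsf1a, for TNF receptor 1, stayed between 1.57 and 3.66 FPKM. Ltbr, for the lymphotoxin beta receptor, was listed at 0.317 FPKM in unstimulated replicate 1 and at 0 in the other 5 libraries. Tnfrsf14, for HVEM, read 1.16 and 2.06 FPKM unstimulated against 3.27 and 1.52 stimulated (0.35, adjusted p = 0.828, but −0.03 without stimulated replicate 1), and Tnfrsf10b 2.58 and 2.199 against 2.003 and 1.98 (−0.18, adjusted p = 0.906). Cd40, a gene of B cells and myeloid cells, read 16.6 to 31.6 FPKM over all libraries. In iBP against unstimulated libraries Fas rose by 0.89 (limma adjusted p = 0.00903; 0.129 without iBP replicate 1 and 0.0624 without iBP replicate 2). Cd27 fell by 0.77 there (adjusted p = 0.0122; 0.0777 without unstimulated replicate 1 and 0.185 without iBP replicate 1). With iBP against stimulated, 0 of 8 receptor genes passed and 0 had an unadjusted p under 0.05.

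**Figure D4:**
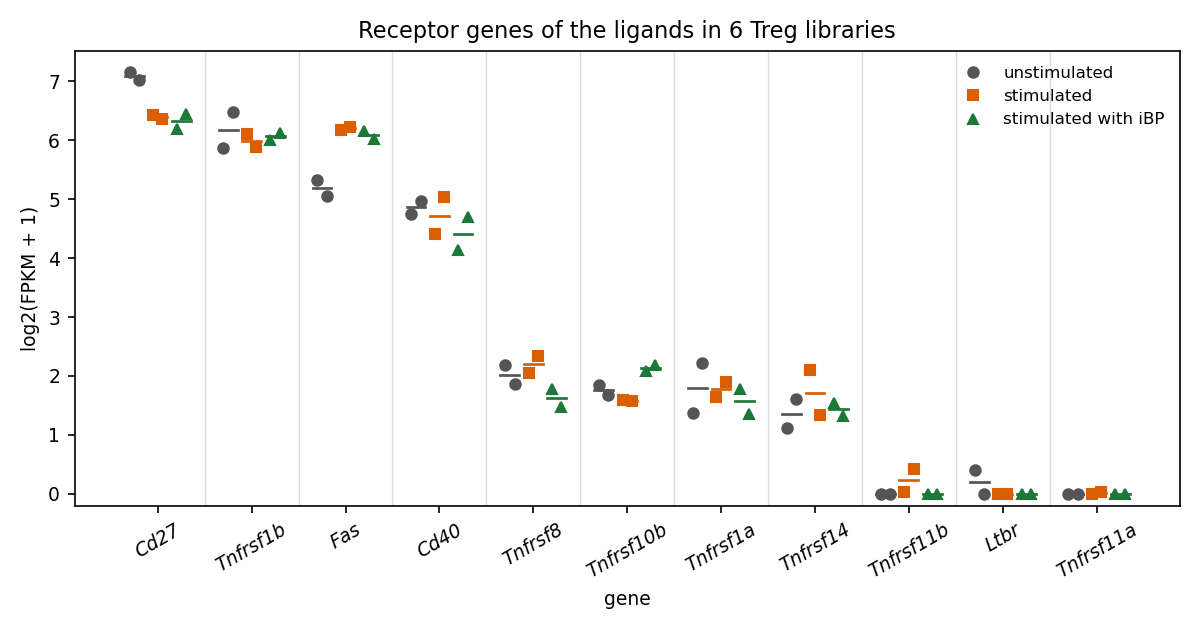
Level of 11 receptor genes of the ligands as log2(FPKM + 1), 1 symbol per library and a line at the mean of 2 on that scale, for unstimulated, stimulated and iBP libraries. Fas is higher and Cd27 lower in all 4 stimulated libraries than in both unstimulated ones, and Ltbr, Tnfrsf11a and Tnfrsf11b are at or near 0.

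Of the 23 adaptor and kinase genes below the receptors, all tested, 0 rose and 1 fell with stimulation. The shares over all tested genes were 0.968% and 0.326%. An unadjusted p under 0.05 was reached by 6 of the 23, against 10.8% of all tested genes. Without overlap, 7 were higher and 5 lower, against 18.7% and 19.1%. Tnfaip3, which encodes A20, an inhibitor of TNF receptor signalling, read 357 and 394 FPKM unstimulated, 246 and 228 stimulated, and 231 and 220.3 with iBP. It fell by 0.66 ± 0.11 (limma adjusted p = 0.0120), a call that ended without unstimulated replicate 2 (0.0516) or stimulated replicate 2 (0.0887). With iBP it fell by 0.73 against unstimulated libraries (adjusted p = 0.00552; 0.0567 without iBP replicate 1 and 0.0880 without iBP replicate 2). Casp8, the caspase recruited by death receptors, read 114 and 118 FPKM unstimulated, 157 and 180 stimulated, and 167 and 168 with iBP. Its difference was 0.53 in stimulated libraries (adjusted p = 0.0526) and also 0.53 in iBP against unstimulated libraries, where it passed (0.0483). The latter call ended without unstimulated replicate 1 (0.169) or 2 (0.0795), iBP replicate 1 (0.301) or 2 (0.302), and with a pseudocount of 0.1 (0.0565). Traf6, an adaptor gene, had the largest difference of the list in size with stimulation, 0.67, and did not pass (adjusted p = 0.199). Birc2 at −0.39 (0.420) and Rnf31 at 0.38 (0.525) did not pass either.

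Of 18 genes for transcription factors that act on ligand promoters in T cells, all tested, 2 rose and 0 fell with stimulation. Among all tested genes 0.968% rose and 0.326% fell. Jun, an AP-1 subunit gene, read 136 and 160 FPKM unstimulated, 298 and 300.5 stimulated, and 306 and 332 with iBP (1.02 ± 0.12, limma adjusted p = 0.00114). Irf4, a factor of effector T cells and Treg, read 61.3 and 70.6 FPKM unstimulated, 113 and 119 stimulated, and 110.3 and 102 with iBP (0.81 ± 0.13, adjusted p = 0.00918). The Irf4 call ended without unstimulated replicate 1 (0.0554) or stimulated replicate 2 (0.0867). In iBP against unstimulated libraries Jun rose by 1.11 (adjusted p = 0.000746) and Irf4 by 0.68 (0.0216), the latter call ending when iBP replicate 1 (0.229), iBP replicate 2 (0.122) or unstimulated replicate 1 (0.111) was left out. Egr2 at 0.52 (adjusted p = 0.343), Egr1 at 0.45 (0.102) and Fosl2 at −0.40 (0.582), the genes with the next largest differences, did not pass. Fos followed in size and was lower without overlap, at 365 and 325 FPKM unstimulated and 268 and 257 stimulated (−0.39, limma adjusted p = 0.167). With stimulation 6 of the 18 had an unadjusted p under 0.05, against 10.8% of all tested genes. Without the filter on low values, or without the variance trend, 12 genes passed with stimulation in all, and the calls of Fas, Cd27, Tnfaip3, Jun and Irf4 in that comparison ended (adjusted p from 0.106 to 0.289). Under the same settings the calls of these 5 genes and of Casp8 in iBP against unstimulated libraries ended as well (adjusted p from 0.0804 to 0.345).

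Of 15 genes whose products cut the ligands loose or control their mRNAs, 0 passed with stimulation in limma and 0 had an unadjusted p under 0.05. Adam17, the protease that sheds TNF, read 13.6 and 14.7 FPKM unstimulated, 13.4 and 16.9 stimulated, and 10.8 and 11.5 with iBP. Zfp36, for tristetraprolin, which binds the AU-rich elements shown above, read 264 and 318, 324 and 294, and 309 and 326. The largest differences with stimulation were those of Khsrp (0.65, adjusted p = 0.508), Zc3h12a (0.51, 0.560) and Rc3h2 (0.43, 0.688), all genes for RNA-binding regulators at no more than 4.73 FPKM. In iBP against unstimulated libraries 0 of the 15 passed and 3 had an unadjusted p under 0.05, against 12.2% of all tested genes. These were Zfp36l2 (−0.73, limma adjusted p = 0.0901), Rhbdf2 (0.73, 0.316) and Khsrp (0.72, 0.399). Zfp36l2 read 31.0 and 34.4 FPKM unstimulated, 22.0 and 29.6 stimulated, and 21.1 and 17.6 with iBP.

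Of 8 other ligands of the superfamily, 2 were tested and 0 passed in any comparison in limma, while 1 (Tnfsf4) had an unadjusted p under 0.05 with stimulation. Tnfsf4, the OX40 ligand gene, lies in the same region as Fasl and read 14.0 and 20.02 FPKM unstimulated, 7.11 and 13.6 stimulated, and 8.76 and 7.47 with iBP. It was lower in both stimulated libraries than in both unstimulated ones (−0.71 ± 0.29, limma adjusted p = 0.390), where Fasl was higher. Tnfsf9, which lies beside Cd70 and encodes the 4-1BB ligand, read 9.13 and 4.04 FPKM unstimulated, 5.72 and 3.89 stimulated, and 5.07 and 6.39 with iBP (−0.32, adjusted p = 0.830, but 0.18 without unstimulated replicate 1). Tnfsf13, Tnfsf18 and Eda were listed at 0 in every library. Near Tnfsf14 and Cd70, Vav1 differed by −0.25 (limma adjusted p = 0.629) and Clpp by 0.27 (0.753; −0.05 without unstimulated replicate 2).

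The genes whose log2(FPKM + 1) ran most nearly parallel to Lta over the 6 libraries, among 6323 others with a mean FPKM of at least 5, were Gimap9 (Pearson r = 0.999), Il22 (0.998), Epcam (0.997), Ms4a4b (0.996) and Icos (0.995). Parallel course does not mean like size: with stimulation Il22 differed by 5.73, Icos by 1.01 and Gimap9 by 0.58. For Tnf they were Adam19 (0.995), Socs2 (0.993), Erp29 (0.991), Fam102a (0.990) and Plagl2 (0.989). For Ltb they were Fkbp2 (0.985), Gsap (0.971), Tm2d3 (0.969), Galnt11 (0.968) and Lxn (0.968). Like Ltb, all of these read highest in unstimulated replicate 1, which stood apart on the first principal component. With only 6 points these values describe the libraries and carry no test.

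Other cell types that make these ligands were looked for by their markers. Of 10 markers of CD8 and NK cells, which make Fas ligand, Ncr1 was at 0 in all unstimulated and stimulated libraries. Highest by mean level were Nkg7, at 16.03 to 26.6 FPKM over all libraries, Cd8b1, at 6.75 to 12.98, and Gzma, at 3.15 to 6.74. The summed FPKM of the 10 was 37.0 and 46.1 unstimulated, 42.0 and 44.5 stimulated, and 35.8 and 43.3 with iBP. These sums overlapped between groups, and Nkg7 made up the largest part of each. The part of CD8 and NK cells in the Fasl values was not tested. The 8 conventional CD4 markers summed to 51.2 and 68.1 FPKM unstimulated, 126 and 140.0 stimulated, and 123 and 134 with iBP. Most of that was Cd200, at 44.6 and 28.99, 109 and 105, and 99.2 and 94.1, the only 1 of the 7 tested to pass with stimulation (1.54, limma adjusted p = 0.00114), and its part in the rise of Lta was not tested. Il2, a cytokine of which Treg are known to make little, read 1.07 and 0, 2.11 and 4.44, and 1.16 and 3.10 FPKM. The 12 myeloid and dendritic markers summed to 70.1 and 88.4 FPKM unstimulated, 88.6 and 90.1 stimulated, and 70.3 and 104 with iBP, most of it Lyz2 (65.5 to 99.5 FPKM). Itgam, Itgax and Clec9a were at 0 in both unstimulated libraries and Itgax, S100a8 and S100a9 in both iBP libraries. The 8 innate lymphoid markers summed to 394 and 409 FPKM unstimulated, 374 and 401 stimulated, and 356 and 364 with iBP.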

How the data were processed

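The authors deposited 1 table of FPKM values for 6 SMART-seq libraries of WT Treg, with no further scaling stated. Per the submitters' processing notes, HISAT2 2.2.1, StringTie 2.1.1 and the mm10 assembly were used. The sources used here give no annotation, strand or handling of multi-mapped reads, so overlapping genes can share reads. Values were not whole multiples of a read, so depth is unknown and precision comes only from the spread between libraries, which may be technical.

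Values were analysed as log2(FPKM + 1) with limma 3.58.1 (R 4.3.3): 3 groups, all 6 libraries, variance trend, a minimum of 1 FPKM in 2 or more libraries, two-sided tests, Benjamini-Hochberg over all tested genes (3 residual and 8.52 prior degrees of freedom). The model was also run on simulated data with independent normal noise, as it assumes. That run does not bear on how the calls depend on the settings. The ligand genes and all lists were chosen with earlier results of these data known. Named genes are the ligands, every listed gene that passed and up to 3 others per list with the largest stimulation difference; other genes given with values, the microRNA rows and the motifs in 3′ untranslated parts were added after values were seen. Alternatives were a pseudocount of 0.1, no filter, rescaling to TPM, median-of-ratios scaling, no variance trend, a replicate block and each library left out. Coordinates are GRCm38 (GENCODE M21), the assembly also called mm10. Figures used matplotlib 3.10.9 (Python 3.11.15).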

Additional observations from a re-analysis of the deposited data

How the results depend on the processing

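Differences of Lta kept their direction under all 12 alternatives in each comparison. The number of genes past the test with stimulation, 135, was 12 without the filter on low values, 12 without the variance trend and 79 with a replicate block, and 54 to 141 with 1 library left out. With iBP against stimulated libraries, 1 gene passed, against 0 without the filter, 0 without the trend and 0 to 5 with 1 library left out (0 without either stimulated replicate, 5 without iBP replicate 1, 3 without iBP replicate 2). With iBP against unstimulated libraries, 183 passed, against 11, 9 and 109 under the same 3 settings and 53 to 190 with 1 library left out.

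Equal replicate numbers do not mark a shared animal in the labels, and deviations of same-numbered libraries correlated at −0.05, −0.01 and −0.02 across genes, so the block is no paired test. With it Cd27 (−0.70, adjusted p = 0.0803) and Tnfaip3 (−0.66, 0.0525) no longer passed with stimulation, nor did Tnf (0.81, 0.069), Irf4 (0.68, 0.0615) and Casp8 (0.53, 0.112) in iBP against unstimulated libraries. The calls of Lta, Fas and Jun against unstimulated libraries held with the block both without and with iBP, as did that of Irf4 with stimulation and those of Cd27 and Tnfaip3 with iBP.

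With 1 library left out at a time, some small differences changed sign. In stimulated against unstimulated libraries the lowest and highest values were −0.17 and 0.37 for Ltb, −0.30 and 0.22 for Tnfsf10, −0.51 and 0.25 for Tnfsf11, −0.029 and 0.73 for Tnfrsf14, −0.49 and 0.13 for Tnfrsf1b, −0.82 and 0.18 for Tnfsf9, and −0.045 and 0.59 for Clpp. In iBP against stimulated libraries they were −0.10 and 0.13 for Tnfsf8, −0.088 and 0.67 for Tnfsf11, −0.37 and 0.20 for Fasl, and −0.093 and 0.50 for Cd40lg. In iBP against unstimulated libraries they were −0.42 and 0.13 for Ltb and −0.12 and 0.44 for Tnfsf11. Where a setting moved a count, the cause was not tested. Depth is unknown, and Cd70 was tested only with the filter lifted.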
